A study of Mus musculus with 4 samples.

Results

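The 36 genes described here are the transcription factor Nfe2l2 (NRF2), its repressor Keap1 and 34 genes of glutathione synthesis, glutathione transfer, thiol and quinone reduction, NADPH supply and iron storage that are commonly listed among NRF2 targets or partners. They were chosen by gene symbol, and all 36 were found among the 32292 features of the count tables. Single-nucleus RNA sequencing gave the counts, from male mouse livers. The mice were 10 to 11 weeks old when DDC feeding began, and it lasted 4 weeks; DDC damages bile ducts and blocks heme synthesis. The 2 CKO libraries came from mice with a deletion of Rbpj, the DNA-binding partner of Notch, targeted to hepatic progenitor cells, and the 2 WT libraries from wild-type mice on the same diet. The driver of the deletion, the strain, and whether a library holds 1 or several mice are not given in the sources used here, so the p-values below measure only the spread between libraries.

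NRF2 is held in the cytoplasm by KEAP1, which marks it for degradation. Electrophiles and oxidants modify cysteines of KEAP1, NRF2 then collects in the nucleus, pairs with a small MAF protein and binds antioxidant response elements. Its targets make glutathione, the main thiol of the liver, couple it to reactive compounds, and supply the NADPH that keeps it reduced.

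The core of the antioxidant response element, TGACNNNGC on either strand, was looked up in the RefSeq promoter windows of the GRCm38.p6 build, which run from 250 bases before to 50 bases after each annotated start. Its opening TGAC is also the start of the AP-1 motif TGACTCA. Of the members, 32 had such a window and 9 of them (28.1%) held the core, against 3781 of 27025 genes with a window (14.0%). Gclc, Gsr, Gsta4 and Gstt2 had no window. The sequences shown are those of members on which the results below turn, written 5′ to 3′ on the strand of the gene, with the core in capitals and 10 bases on each side.
Nfe2l2: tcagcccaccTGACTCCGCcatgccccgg
Gclm: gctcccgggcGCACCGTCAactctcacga
Srxn1: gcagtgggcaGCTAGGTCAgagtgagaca
Txnrd1: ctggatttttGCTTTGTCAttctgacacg
Ugdh, first core: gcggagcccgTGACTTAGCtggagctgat
Ugdh, second core: tcctcaagggGCGTGGTCAtacagttcgg
Gsta3: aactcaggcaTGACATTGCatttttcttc
Mgst1: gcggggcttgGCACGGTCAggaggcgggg
The 29-base stretches lie at chr2:75704885-75704913 (minus strand) for Nfe2l2, chr3:122245413-122245441 (plus) for Gclm, chr2:152105542-152105570 (plus) for Srxn1 and chr10:82859104-82859132 (plus) for Txnrd1. Those of Ugdh lie at chr5:65435956-65435984 and chr5:65435918-65435946 (minus), that of Gsta3 at chr1:21240454-21240482 (plus) and that of Mgst1 at chr6:138140461-138140489 (plus). G6pdx and Pgd also held a core. A match is a run of letters, not a measured binding site.

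The CKO libraries held 38003108 UMIs in 16000 barcodes and 12261329 in 5184, and the WT libraries 45620141 in 16000 and 13914845 in 6480, for replicates 1 and 2 of each genotype. Pairs of libraries shared between 19 and 114 barcode sequences. After doublet removal 39017 barcodes fell into 22 clusters, found without the members, and clusters were named from markers raised over the free RNA of the same library, taken from the 10% of its barcodes with the fewest UMIs. Many barcodes lay in clusters without enough raised markers and stayed unnamed. These were 8707 of 13952 and 2802 of 4969 in CKO replicates 1 and 2. In WT replicates 1 and 2 they were 5440 of 13952 and 3798 of 6144. Hepatocyte-like nuclei numbered 932 and 1658 in CKO replicates 1 and 2, and 1759 and 1137 in WT replicates 1 and 2. Cholangiocyte-like nuclei numbered 498 and 45 in the CKO libraries against 1470 and 303 in the WT libraries. The hepatocyte-like class had 3 or 4 of its 10 markers raised in every library's main cluster, chiefly Cps1, Abcb11 and Hnf4a. The markers Alb, Apob, Slc10a1, Serpina1c, Ttr and Apoa1 were higher in the lowest-UMI barcodes of every library. Ass1 was so in CKO replicate 1 alone. Free RNA was estimated at 28.5% to 39.9% of hepatocyte-like UMIs, 53.1% to 68.9% of cholangiocyte-like UMIs and 57.9% to 86.3% in endothelial-, mesenchymal- and macrophage-like nuclei. Within each of these classes it was highest in CKO replicate 2. It was scaled to mitochondrial transcripts in hepatocyte-like nuclei and to secreted hepatocyte transcripts in the other classes. The percentages of hepatocyte-like nuclei are therefore not on the same scale as those of the others. These estimates take the lowest-UMI barcodes to hold free RNA alone, which was not tested: their median was 1838 and 1562 UMIs in CKO replicates 1 and 2 against 1840 and 1480 UMIs in WT replicates 1 and 2, and that of macrophage-like nuclei was 2191 and 1782 UMIs against 2365 and 1762 UMIs. Hepatocyte-like nuclei of each library lay mostly in a cluster of their own, number 5 for CKO replicate 1, 19 for CKO replicate 2, 12 for WT replicate 1 and 21 for WT replicate 2. Xist had 4 to 11 UMIs and the Y-linked Ddx3y at least 704 UMIs in each library, as in male mice. Rbpj had 73.0 and 41.9 CPM (UMIs per 1000000 UMIs of the class) in cholangiocyte-like nuclei of CKO replicates 1 and 2, from 108 and 4 UMIs, against 81.8 and 66.7 CPM in WT replicates 1 and 2. Reads from the 3′ end need not lie in the deleted part, so this does not check the labels.

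The comparison of CKO with WT livers asked how the defence genes differed when Notch signalling through RBPJ was removed from progenitor cells during biliary injury. No member was called in any of the 5 classes or in all kept barcodes at an adjusted p under 0.05 (edgeR quasi-likelihood test with Benjamini-Hochberg adjustment over all genes tested, and DESeq2 likewise). No gene at all was called by edgeR in these 6 fits, so the background is 0%, and DESeq2 called between 0 and 4 genes in a fit. At an unadjusted p under 0.05, edgeR passed 1 member in hepatocyte-like nuclei (background 1.76%), 5 in cholangiocyte-like (5.18%), 5 in endothelial-like (5.18%), 3 in mesenchymal-like (7.57%), 4 in macrophage-like nuclei (5.28%) and 1 in all kept barcodes (1.45%). The median log2 change of the members was -0.045 in hepatocyte-like (0.011 over all genes), -0.035 in cholangiocyte-like (-0.022), -0.019 in endothelial-like (0.0040), 0.059 in mesenchymal-like (0.013) and 0.0022 in macrophage-like nuclei (-0.0008). In hepatocyte-like nuclei 15 members had a positive and 21 a negative value. With 2 libraries per genotype the smallest p of an exact permutation test is 0.333. Without CKO replicate 1, edgeR called 3 members lower in hepatocyte-like nuclei (Gsta2, Gstp2 and Slc7a11, with 1.17% of all genes called), and without CKO replicate 2 it called none there.

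The members separated CKO replicate 2 from the other 3 libraries more than they separated the genotypes. In hepatocyte-like nuclei the members made up 0.937% of UMIs in CKO replicate 1 (95% Wilson interval 0.929 to 0.946%) and 0.659% in CKO replicate 2 (0.652 to 0.665%), against 0.848% in WT replicate 1 and 0.887% in WT replicate 2. The first CKO library was thus the highest of the 4 and the second the lowest. On the log2 CPM scale with TMM scaling, 22 of the 36 members were lowest in CKO replicate 2 (33.0% of all 13372 genes tested) and 11 lay over 2-fold below each of the other libraries (5.10% of all genes). With plain CPM these counts were 24 and 11. CKO replicate 2 was the highest library for 6 members (32.9% of all genes), and CKO replicate 1 for 13 (30.5%). The median difference of CKO replicate 2 from the mean of the WT libraries was -0.65 over the members and -0.0028 over all genes, and that of CKO replicate 1 was 0.088 and 0.0003. Intervals cover counting error only.

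**Figure D1:**
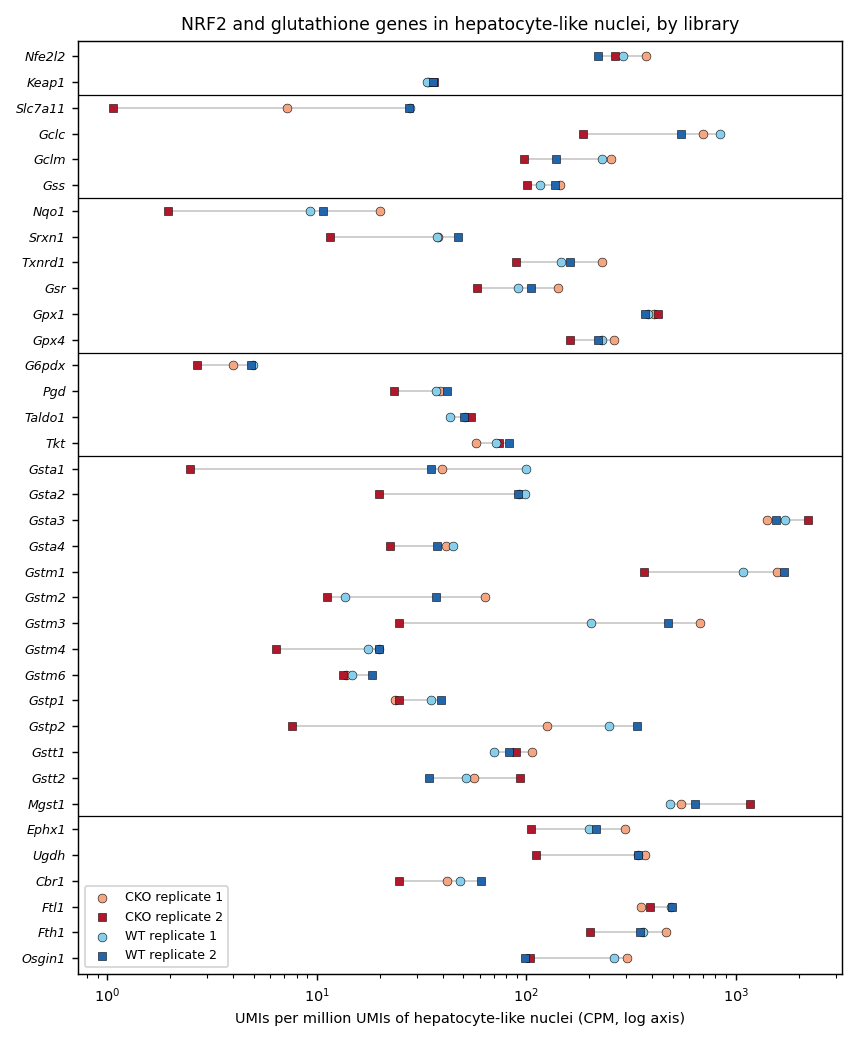
CPM of each member in hepatocyte-like nuclei on a log axis, 1 point per library, with horizontal lines separating the roles in the order they are described. CKO replicate 2 (dark red squares) lies left of the other libraries for most members, most widely for Slc7a11, Gsta1, Gstm3 and Gstp2, and right of them for Gsta3, Gstt2 and Mgst1.

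The regulators Nfe2l2 and Keap1 showed little of this. Nfe2l2 (chr2:75675513-75704641) had 371 and 266 CPM in hepatocyte-like nuclei of CKO replicates 1 and 2, against 290 and 220 CPM in WT replicates 1 and 2. On the TMM scale both CKO libraries lay above both WT libraries, but with plain CPM the second CKO library lay between the WT libraries. Its log2 change was 0.39 (SE 0.24, edgeR adjusted p = 1.0). Keap1 was nearly level, with 33.9 and 36.3 CPM in CKO replicates 1 and 2 against 33.64 and 35.999 CPM in WT replicates 1 and 2. Its log2 change was 0.09 (SE 0.23, edgeR adjusted p = 1.0).

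Among the genes of glutathione synthesis, the cystine importer and the rate-limiting ligase were low in CKO replicate 2. Slc7a11, the light chain of the cystine-glutamate exchanger, had 7.17 and 1.07 CPM in CKO replicates 1 and 2 (36 and 6 UMIs), against 27.7 and 27.4 CPM in WT replicates 1 and 2 (292 and 118 UMIs). Both CKO libraries lay below both WT libraries, and the counting intervals of the CKO values (5.02 to 9.93 and 0.391 to 2.32 CPM) did not reach the WT values. The lowest-UMI barcodes held 12.9 and 0 CPM of Slc7a11 in CKO replicates 1 and 2, against 35.0 and 20.9 CPM in WT replicates 1 and 2. Its hepatocyte-like level was thus below free RNA in both first replicates and above it in WT replicate 2. In CKO replicate 2 its 6 UMIs stood against 0 of 809132 UMIs in the lowest-UMI barcodes, too few to order these levels. Slc7a11 had the smallest p of the members in this class, with a log2 change of -2.72 (SE 0.78, unadjusted p = 0.0192, adjusted p = 1.0, edgeR). Without CKO replicate 1 the change was -4.50 (edgeR adjusted p = 0.0166), and without CKO replicate 2 it was -1.95 (0.0859).

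Gclc, the catalytic subunit of glutamate-cysteine ligase (chr9:77754535-77794485), had 694 and 187 CPM in CKO replicates 1 and 2, against 843 and 546 CPM in WT replicates 1 and 2. The first CKO library lay between the WT libraries and the second far below them, 1.70 lower than their mean on the log2 scale. Gclm, the modifier subunit, had 253 and 97.6 CPM in CKO replicates 1 and 2 against 229 and 139 CPM in WT replicates 1 and 2. Its CKO libraries enclosed the WT libraries. Gss, glutathione synthetase, differed least of the 4, with 144 and 100.2 CPM in the CKO libraries against 117 and 137 CPM in the WT libraries.

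Nqo1, Srxn1, Txnrd1 and Gsr were each lowest in CKO replicate 2. Nqo1, a quinone reductase and a standard readout of NRF2, had 19.9 and 1.96 CPM in CKO replicates 1 and 2 (100 and 11 UMIs), against 9.31 and 10.7 CPM in WT replicates 1 and 2. The CKO libraries were thus the highest and the lowest, and the log2 change of 0.14 (SE 0.97, edgeR adjusted p = 1.0) averages values on both sides of WT. Srxn1, which repairs overoxidised peroxiredoxins, had 37.9 and 11.6 CPM in CKO replicates 1 and 2 against 37.6 and 47.4 CPM in WT replicates 1 and 2. Only the second CKO library stood below.

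Txnrd1, thioredoxin reductase, had 231 and 88.9 CPM in CKO replicates 1 and 2 against 147 and 162 CPM in WT replicates 1 and 2. Gsr, which regenerates reduced glutathione, had 142 and 58.1 CPM in CKO replicates 1 and 2 against 91.3 and 105 CPM in WT replicates 1 and 2. In both genes the first CKO library was the highest and the second the lowest. The glutathione peroxidases were nearer to level: Gpx1 had 405 and 425 CPM in the CKO libraries against 380 and 369 CPM in the WT libraries, and Gpx4 had 261 and 162 CPM against 229 and 221 CPM.

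The NADPH-supplying enzymes varied less. G6pdx, the entry enzyme of the pentose phosphate pathway, was counted in 20 and 15 UMIs in CKO replicates 1 and 2 and in 52 and 21 UMIs in WT replicates 1 and 2, or 3.98 and 2.67 against 4.94 and 4.88 CPM. Both CKO libraries lay below both WT libraries, though the counting intervals overlapped (2.43 to 6.15 CPM in CKO replicate 1 and 3.69 to 6.48 CPM in WT replicate 1). Pgd, the next dehydrogenase of that pathway, had 38.6 and 23.5 CPM in the CKO libraries against 36.9 and 42.0 CPM in the WT libraries. Taldo1 and Tkt, the transaldolase and transketolase of its other branch, were not lowest in CKO replicate 2, where they had 54.4 and 73.9 CPM.

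The 14 glutathione transferases held the members' lowest and highest log2 differences of CKO replicate 2 from the WT mean, -5.03 for Gstp2 and 1.31 for Gstt2. The mu-class genes lie side by side on chromosome 3, between the start of Gstm6 at 107938847 and the end of Gstm4 at 108044894. Gstm1 had 1581 and 366 CPM in CKO replicates 1 and 2, against 1079 and 1708 CPM in WT replicates 1 and 2. Gstm3 had 675 and 24.7 CPM in CKO replicates 1 and 2 against 204 and 473 CPM in WT replicates 1 and 2. For Gstm3 the difference of the CKO libraries from each other (-4.59 on the log2 scale, replicate 2 minus replicate 1) compares with 1.38 between the WT libraries.

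Gstm2 had 63.6 and 11.2 CPM in CKO replicates 1 and 2 against 13.7 and 36.9 CPM in WT replicates 1 and 2, and Gstm4 had 19.7 and 6.40 CPM against 17.6 and 19.7 CPM. Gstm6 differed little, at 13.7 and 13.3 CPM in the CKO libraries against 14.7 and 18.3 CPM in the WT libraries. The transcripts of Gstm1 and Gstm3 are 87.6% identical over 1230 aligned bases.

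The alpha class was split. Gsta1 had 39.4 and 2.49 CPM in CKO replicates 1 and 2 against 99.2 and 35.1 CPM in WT replicates 1 and 2, and Gsta2 had 92.0 and 19.9 CPM against 98.3 and 91.3 CPM. Both were over 2-fold lower in CKO replicate 2 than in any other library. Gsta3, on chromosome 1, went the other way, with 1411 and 2204 CPM in CKO replicates 1 and 2 against 1722 and 1554 CPM in WT replicates 1 and 2. Gsta4, which acts on lipid aldehydes, had 41.2 and 22.4 CPM in the CKO libraries against 44.6 and 37.4 CPM in the WT libraries.

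Counts of Gsta1 and Gsta2 are uncertain, because their transcripts are 97.2% identical and Gsta1 is 99.5% identical to that of Gm3776. This gene, named after its values were seen, had 11.4 and 1.96 CPM in CKO replicates 1 and 2 against 14.6 and 52.7 CPM in WT replicates 1 and 2, so the WT libraries stood in the reverse order of Gsta1.

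Gstp2 (chr19:4040285-4046023), a pi-class transferase, was the one member at over 2 times its lowest-UMI level in hepatocyte-like nuclei of every library. In CKO replicate 2 that lowest-UMI level rested on 2 UMIs. In hepatocyte-like nuclei Gstp2 had 126 and 7.64 CPM in CKO replicates 1 and 2, against 248 and 337 CPM in WT replicates 1 and 2. Both CKO libraries lay below both WT libraries, the second by 5.03 below their mean on the log2 scale. Its log2 change was -2.15 (SE 1.18, unadjusted p = 0.131, adjusted p = 1.0, edgeR). At least 1 UMI was found in 31.3% of 932 and 2.35% of 1658 nuclei of CKO replicates 1 and 2, against 47.0% of 1759 and 45.9% of 1137 nuclei of WT replicates 1 and 2. Median depth in these nuclei was 4535 and 3016 UMIs in the CKO libraries against 5367 and 3202 UMIs in the WT libraries. With each nucleus thinned to 1400 UMIs the shares were 12.2% and 1.09% in the CKO libraries against 21.9% and 27.7% in the WT libraries. Macrophage-like nuclei, of 2191 and 1782 UMIs against 2365 and 1762 UMIs, gave 2.47% and 0 of 169 (which allows up to 1.78%) in the CKO libraries against 4.39% and 6.67% in the WT libraries, all before thinning. Within CKO replicate 2 the share before thinning was thus 2.35% in hepatocyte-like nuclei against 0 of 169 in macrophage-like nuclei. At 1400 UMIs the hepatocyte-like share of 1.09% lay below the 1.78% that 0 of 169 allows. At equal depth these classes of that library therefore cannot be told apart by Gstp2. Libraries differed in free Gstp2, with 11.6 and 2.47 CPM in the lowest-UMI barcodes of CKO replicates 1 and 2 against 33.6 and 50.1 CPM in WT replicates 1 and 2. Macrophage-like shares of other libraries are therefore no measure of the background of Gstp2 in CKO replicate 2. Gstp1, its neighbour with 95.7% transcript identity, had 23.5 and 24.7 CPM in CKO replicates 1 and 2 against 35.0 and 39.3 CPM in WT replicates 1 and 2, with a log2 change of -0.55 (SE 0.24, unadjusted p = 0.0728, adjusted p = 1.0, edgeR). Reads of the pair can be split between them.

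The theta-class and microsomal transferases were not low in CKO replicate 2. Gstt2 had 56.2 and 93.7 CPM in CKO replicates 1 and 2 against 51.7 and 34.1 CPM in WT replicates 1 and 2, a log2 change of 0.91 (SE 0.37, unadjusted p = 0.0612, adjusted p = 1.0, edgeR). Both CKO libraries lay above both WT libraries. Gstt1 had 107 and 89.8 CPM in the CKO libraries against 70.0 and 82.7 CPM in the WT libraries. Mgst1, the microsomal transferase, had 546 and 1174 CPM in CKO replicates 1 and 2 against 488 and 638 CPM in WT replicates 1 and 2, and only the second CKO library stood above.

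Of the remaining targets, Ugdh, which makes the UDP-glucuronate used in conjugation, had 369 and 111 CPM in CKO replicates 1 and 2 against 343 and 339.6 CPM in WT replicates 1 and 2. Cbr1, a carbonyl reductase, had 42.0 and 24.7 CPM in CKO replicates 1 and 2 against 48.2 and 60.6 CPM in WT replicates 1 and 2, with a log2 change of -0.66 (SE 0.31, unadjusted p = 0.0939, adjusted p = 1.0, edgeR). Ugdh was low in the second CKO library alone, and Cbr1 in both. Ephx1, the microsomal epoxide hydrolase, had 296 and 105 CPM in the CKO libraries against 199 and 216 CPM in the WT libraries.

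Osgin1, an oxidative stress-induced growth inhibitor, had 303 and 104 CPM in CKO replicates 1 and 2 against 261 and 98.7 CPM in WT replicates 1 and 2, so here both second replicates were low. The ferritin chains differed from each other: Fth1 had 463 and 201 CPM in the CKO libraries against 362 and 349 CPM in the WT libraries, and Ftl1 had 353 and 389 CPM against 491 and 498 CPM. Over the whole list, both CKO libraries lay below both WT libraries in 7 members (background 13.1%) and above them in 4 (background 12.4%), on the TMM scale.

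**Figure D2:**
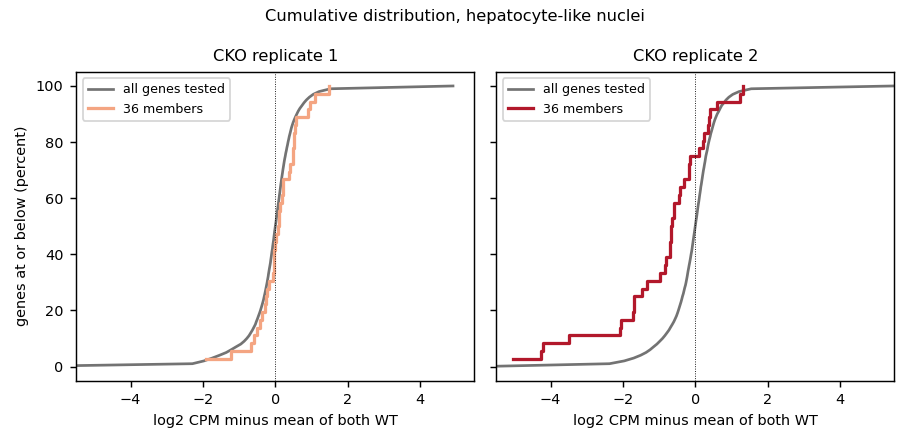
Cumulative percent of genes by their difference in log2 CPM (TMM) from the mean of both WT libraries in hepatocyte-like nuclei, for CKO replicate 1 (left) and CKO replicate 2 (right), the 36 members in colour and all 13372 tested genes in grey. The members follow the grey line in CKO replicate 1 (medians 0.088 and 0.0003) and lie left of it in CKO replicate 2 (medians -0.65 and -0.0028).

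Other gene lists also set the CKO libraries apart from each other in hepatocyte-like nuclei. Summed over 7 male-biased liver genes the level was 581 and 6773 CPM in CKO replicates 1 and 2, against 4813 and 5273 CPM in WT replicates 1 and 2, and 6 female-biased genes summed to 897 and 5.15 CPM against 113 and 47.6 CPM. All 7 male-biased genes were highest in CKO replicate 2, though Hsd3b5, Elovl3 and Mup7 were at 0 in some library. Markers of other cell types were also low in hepatocyte-like nuclei of CKO replicate 2, which was the lowest library for 11 of 11 cholangiocyte, 9 of 11 mesenchymal, 8 of 11 macrophage and 5 of 12 endothelial markers. The cholangiocyte markers summed to 708 and 326 CPM in CKO replicates 1 and 2 against 949 and 714 CPM in WT replicates 1 and 2, the mesenchymal to 147 and 69.0 against 214 and 122 CPM, the macrophage to 286 and 58.3 against 216 and 85.5 CPM, and the endothelial to 215 and 124 against 242 and 122 CPM. None of these markers was at 0 in a library. Sums of 8 pericentral genes were 876 and 1127 CPM in the CKO libraries against 740 and 437 CPM in the WT libraries, and of 8 periportal genes 1038 and 1807 CPM against 2066 and 1867 CPM. The part of these differences in the members' values was not tested.

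The low values of CKO replicate 2 were not limited to hepatocyte-like nuclei. It was the lowest library for 25 of 36 members in cholangiocyte-like (46.0% of all genes), 20 of 35 in endothelial-like (36.6%), 22 of 36 in mesenchymal-like (36.9%) and 22 of 36 in macrophage-like nuclei (39.0%). In the lowest-UMI barcodes, whose profile was taken as that of free RNA, the members made up 1.41% and 0.809% of UMIs in CKO replicates 1 and 2 against 1.36% and 1.37% in WT replicates 1 and 2. There 27 of 36 members had their lowest CPM in CKO replicate 2 (43.4% of 16796 genes) and 18 lay over 2-fold below each other library (15.8%). Gstm3 had 1189 and 69.2 CPM in these barcodes of CKO replicates 1 and 2 against 559 and 966 CPM in WT replicates 1 and 2. Gsta3, Mgst1 and Gstt2 were again highest in CKO replicate 2, Mgst1 with 1264 and 2120 CPM in CKO replicates 1 and 2 against 1128 and 1442 CPM in WT replicates 1 and 2. With the estimated free RNA subtracted, the log2 change in hepatocyte-like nuclei was -3.15 for Slc7a11, -0.60 for Gclc and -2.09 for Gstp2, again with no member called. The lowest-UMI barcodes of CKO replicate 2 held 0 UMIs of Slc7a11, so nothing was subtracted from it in that library.

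Levels over the free RNA of the same library show in which class a member was measured as more than background. Of the members, 8 lay above the lowest-UMI barcodes in hepatocyte-like nuclei of every library: Nfe2l2, Keap1, Gclc, Gss, Gsta3, Gstp2, Ugdh and Osgin1. Gstp2 stood at 10.9 and 3.09 times the lowest-UMI level in CKO replicates 1 and 2 against 7.38 and 6.72 times in WT replicates 1 and 2. The ratio of CKO replicate 2 rests on 2 UMIs in its lowest-UMI barcodes. Gclc stood at 2.65 and 1.89 times in the CKO libraries against 2.16 and 2.55 times in the WT libraries, and Nfe2l2 at 2.71 and 3.64 against 1.62 and 1.90 times. Another 21 members, among them Gstm1, Gstm3, Gsta1, Mgst1, Gpx1, Gpx4, Ftl1 and Fth1, lay at or below the lowest-UMI level in hepatocyte-like nuclei of every library. By level alone, their CPM in nuclei cannot be told apart from free RNA.

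**Figure D3:**
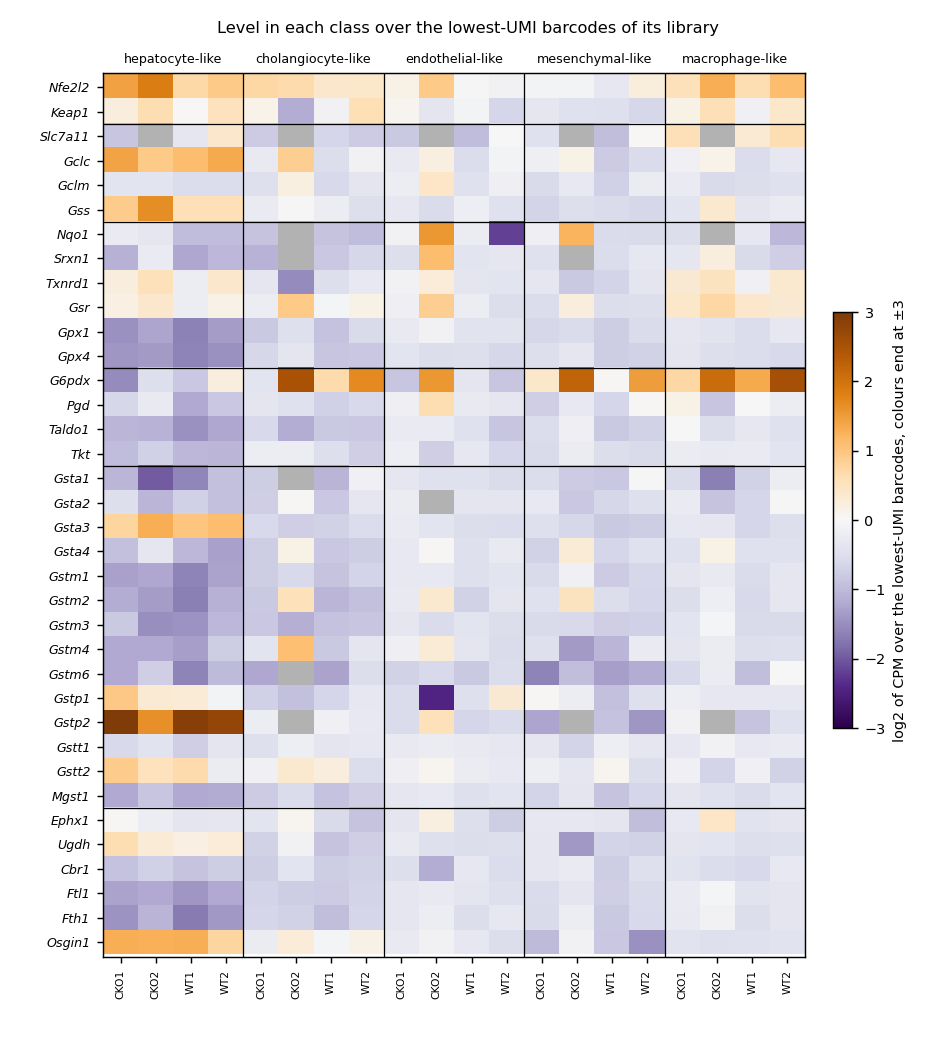
Log2 ratio of each member's CPM in a class to that in the lowest-UMI barcodes of the same library, with 4 library columns per class and the members in rows by role. Grey cells have 0 UMIs in the class or too few in the lowest-UMI barcodes for a ratio. Gstp2, Gclc, Nfe2l2, Gsta3, Gss and Osgin1 are above 0 in all 4 hepatocyte-like columns, and most transferases are below 0 in every class.

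The other classes stood closer to free RNA. Gclc, Gss, Gsta3, Gstp2, Gstt2, Ugdh and Osgin1 had their highest CPM of the 5 classes in hepatocyte-like nuclei in all 4 libraries, and Gclm in endothelial-like nuclei. Nfe2l2 was above the lowest-UMI level in cholangiocyte-like nuclei of every library, with 225 and 115 CPM in CKO replicates 1 and 2 against 232 and 155 CPM in WT replicates 1 and 2. It was also above it in macrophage-like nuclei, with 199.98 and 180.2 CPM in the CKO libraries against 276 and 251 CPM in the WT libraries. G6pdx was above it in macrophage-like nuclei, with 19.1 and 15.8 CPM in CKO replicates 1 and 2 against 22.4 and 24.4 CPM in WT replicates 1 and 2, and in mesenchymal-like nuclei, and Gsr in macrophage-like nuclei. For G6pdx the lowest-UMI level rests on 3 UMIs in CKO replicate 2 and 4 UMIs in WT replicate 2. No member was above the lowest-UMI level in endothelial-like nuclei of every library.

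In cholangiocyte-like nuclei, which share markers with the progenitor cells in which the deletion was placed, Gstm2 had the smallest p, with 81.1 and 41.9 CPM in CKO replicates 1 and 2 against 20.7 and 42.4 CPM in WT replicates 1 and 2. Its log2 change was 1.57 (SE 0.42, unadjusted p = 0.00356, adjusted p = 0.569, edgeR). The second CKO value rests on 4 UMIs and lay between the WT libraries. Gstp2 had 10.1 and 0 CPM in CKO replicates 1 and 2 against 30.5 and 40.9 CPM in WT replicates 1 and 2, with a log2 change of -1.76 (SE 0.49, unadjusted p = 0.00468, adjusted p = 0.632, edgeR). The 95413 UMIs of this class in CKO replicate 2 allow a level of up to 31.4 CPM where none was counted. Its level in this class was below that of the lowest-UMI barcodes in every library, and without doublet removal it was called lower in CKO, with 0.272% of all genes.

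Gsta1 had 48.7 and 0 CPM in CKO replicates 1 and 2 against 142 and 60.6 CPM in WT replicates 1 and 2 in cholangiocyte-like nuclei, and Slc7a11 had 7.44 and 0 CPM against 22.2 and 12.1 CPM. Neither passed (edgeR adjusted p = 0.850 and 0.884), but Gsta1 was called lower in CKO without CKO replicate 1 (adjusted p = 0.00814) and with no low-count filter (0.0261). These nuclei fell into cluster 4 and the smaller cluster 13, which was led by Dab1 and Egflam and had 5 of 11 cholangiocyte markers raised. Nfe2l2 stood higher in cluster 13 than in cluster 4 in the 3 libraries with enough nuclei, at 325 against 195 CPM in CKO replicate 1, 290 against 217 CPM in WT replicate 1 and 241 against 138 CPM in WT replicate 2. Gclc did so too, at 281 against 197, 438 against 235 and 241 against 192 CPM in the same libraries. Median depth was 3708 UMIs in cluster 13 and 2623 in cluster 4, and its part in this was not tested.

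In endothelial-, mesenchymal- and macrophage-like nuclei the 4 members with the smallest p came from Gstm2, Gstp1, Gstp2, Gstt1, Gsta1, Pgd and Slc7a11, and none of these stood above the lowest-UMI level in every library of those classes. Gstm2 had a log2 change of 1.41 (SE 0.53) in endothelial-like and 1.36 (SE 0.41) in mesenchymal-like nuclei (edgeR adjusted p = 0.925 and 0.451). Its level was 118 and 36.5 CPM in CKO replicates 1 and 2 against 26.5 and 62.0 CPM in WT replicates 1 and 2 in endothelial-like nuclei, so it was high in CKO replicate 1 alone. Without CKO replicate 2 it was called in both classes (edgeR adjusted p = 1.17e-08 and 8.01e-06), where 3.52% and 3.20% of all genes then were, and so was Gsta1, while Gstp1 was called in endothelial-like nuclei alone (adjusted p = 0.0171).

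Gstp2 and Gstp1 were lower in both CKO libraries in endothelial-like nuclei, at 7.89 and 3.65 CPM for Gstp2 in CKO replicates 1 and 2 (16 and 1 UMIs) against 21.5 and 34.4 CPM in WT replicates 1 and 2. Gstp1 had 8.38 and 3.65 CPM against 20.9 and 52.8 CPM. Their log2 changes were -1.67 (SE 0.55) and -1.92 (SE 0.67), with edgeR adjusted p = 0.915 and 0.922. Gstt1 had higher values in both CKO libraries, at 134 and 102 CPM against 95.9 and 84.9 CPM (log2 change 0.62, SE 0.26, edgeR adjusted p = 0.948).

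In mesenchymal-like nuclei Gstp2 had 4.81 and 0 CPM in CKO replicates 1 and 2 against 18.1 and 18.7 CPM in WT replicates 1 and 2, where 0 allows up to 17.3 CPM. Gsta1 had 56.8 and 5.76 CPM against 167 and 65.5 CPM and Pgd a log2 change of -0.78 (SE 0.37), with edgeR adjusted p = 0.542 and 0.689. In macrophage-like nuclei Slc7a11 had 19.1 and 3.16 CPM in CKO replicates 1 and 2 (98 and 1 UMIs) against 43.9 and 32.1 CPM in WT replicates 1 and 2. Both CKO libraries lay below both WT libraries, with a log2 change of -1.08 (SE 0.37, unadjusted p = 0.0178, adjusted p = 0.887, edgeR). The macrophage-like nuclei of CKO replicate 1 were mostly in cluster 1, while those of the other libraries were in clusters 14 and 15. Within WT replicate 1, Slc7a11 had 74.4 CPM in cluster 15 and 19.1 CPM in cluster 14, and CKO replicate 1 had 19.0 CPM in cluster 1. Gstt1 had 132 and 111 CPM in macrophage-like nuclei of CKO replicates 1 and 2 against 95.4 and 89.9 CPM in WT replicates 1 and 2, with both CKO libraries above both WT libraries (log2 change 0.60, SE 0.23, edgeR adjusted p = 0.902). Gsta1 and Gstp1 had log2 changes of -1.41 (SE 0.57) and -1.01 (SE 0.43) there, with edgeR adjusted p = 0.902 and 0.934.

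**Figure D4:**
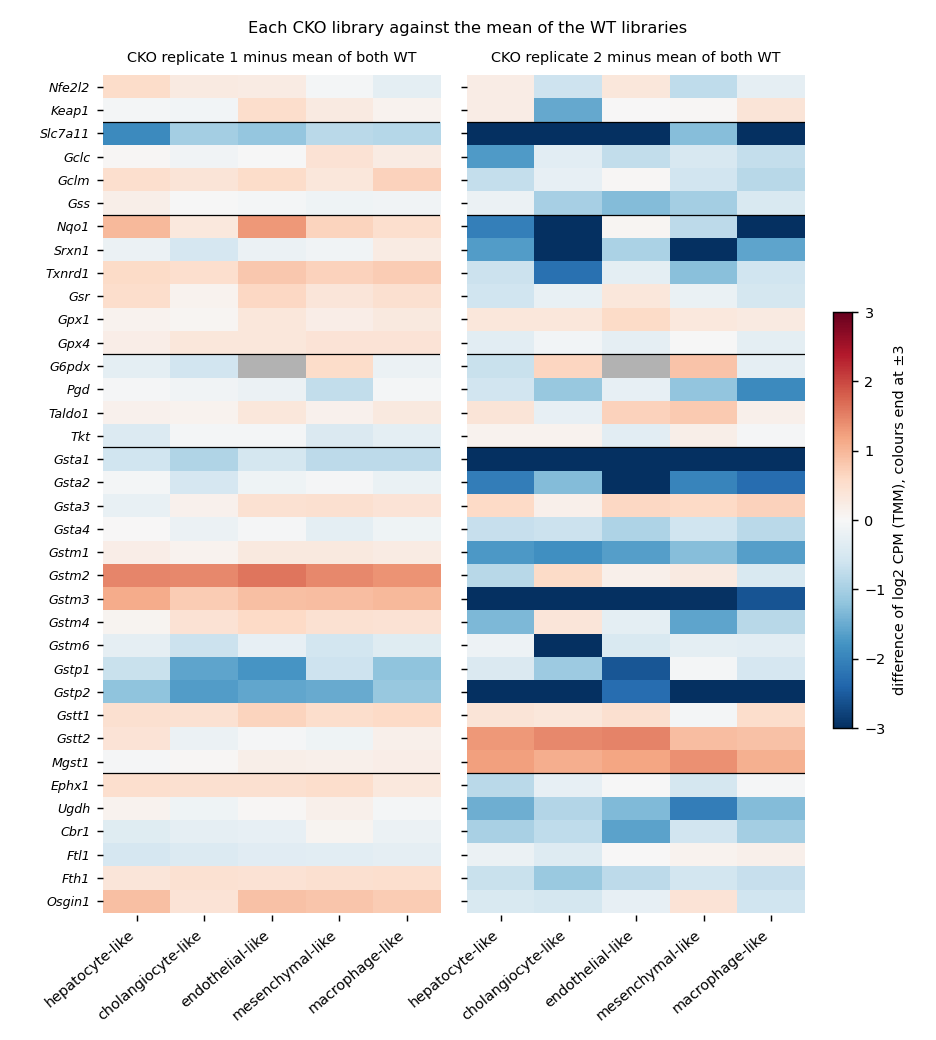
Difference in log2 CPM (TMM) of CKO replicate 1 (left) and CKO replicate 2 (right) from the mean of both WT libraries, for each member (rows) in 5 classes (columns), with red higher in the CKO library. Slc7a11, Gsta1 and Gstp2 are blue in every class of both libraries and Gstm3 is red on the left and blue on the right; cells of CKO replicate 2 with 0 UMIs depend on the prior count, and the grey cells were not tested.

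In all kept barcodes Gstp2 had the smallest p of the members (log2 change -2.57, SE 0.90, unadjusted p = 0.0376, adjusted p = 1.0, edgeR), with 29.3 and 4.77 CPM in CKO replicates 1 and 2 against 85.8 and 137 CPM in WT replicates 1 and 2. Gstt1, Slc7a11 and Gstt2 came next, with log2 changes of 0.61, -1.87 and 0.93. Since barcodes of all kinds are pooled there, fewer cells of a type and less RNA per cell cannot be told apart. The pool includes the unnamed barcodes. In these the members made up 1.43% and 0.816% of UMIs in CKO replicates 1 and 2, against 1.41% and 1.39% in WT replicates 1 and 2. These shares were close to those in the lowest-UMI barcodes.

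A second list of 68 other NRF2 pathway genes, such as further transferases, aldehyde dehydrogenases and heme oxygenase, had 0 calls by edgeR and DESeq2 in the 6 fits, with 48 to 67 genes tested. In hepatocyte-like nuclei 2 of 64 passed an unadjusted p under 0.05 by edgeR (background 1.76%). Both were higher in CKO, as were 0.815% of all genes at that limit. These were Me1, malic enzyme, an NADPH source, with 353 and 482 CPM in CKO replicates 1 and 2 against 166 and 193 CPM in WT replicates 1 and 2, and Aldh9a1, an aldehyde dehydrogenase, with 58.0 and 70.9 against 42.9 and 33.7 CPM. Their log2 changes were 1.30 (SE 0.32) and 0.84 (SE 0.24), with an edgeR adjusted p = 1.0 each. The median difference of CKO replicate 2 from the WT mean was -0.020 over this list. Of its 64 genes, 25 were lowest in that library (33.0% of all genes) and 22 were highest there (32.9%). The shift toward low values in CKO replicate 2 was thus smaller than in the 36 members, with no test of the difference. Without CKO replicate 1, Abcc4, Cbr3, Ces1g and Cyp2a5 were called lower. Cyp2a5, a cytochrome P450, had 751 and 162 CPM in CKO replicates 1 and 2 against 761 and 611 CPM in WT replicates 1 and 2, and Abcc4, a basolateral exporter of bile acids and conjugates, had 425 and 14.8 against 210 and 174 CPM.

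Outside hepatocyte-like nuclei, Hmox1, which degrades heme, had the smallest p of that list in cholangiocyte- and macrophage-like nuclei. In macrophage-like nuclei it had 128 and 56.9 CPM in CKO replicates 1 and 2 against 49.6 and 51.4 CPM in WT replicates 1 and 2 (log2 change 1.21, SE 0.32, edgeR adjusted p = 0.887). In cholangiocyte-like nuclei it had 62.9 and 0 CPM against 15.8 and 7.58 CPM (log2 change 2.07, SE 0.46, edgeR adjusted p = 0.485), so the higher value there rests on CKO replicate 1. The next smallest p were those of Gstt3 in cholangiocyte-like nuclei (log2 change 1.70), Gstz1 and Nfe2l1 in endothelial-like (0.84 and 0.87), Gstk1 and Ugt2b35 in mesenchymal-like (1.79 and 0.81) and Gstm7 in macrophage-like nuclei (1.24), each with an edgeR adjusted p of 0.481 or more. Oat, an ornithine aminotransferase made by hepatocytes, had log2 changes of 1.86 to 2.76 in the 5 classes, without passing (smallest edgeR adjusted p = 0.0646). In the lowest-UMI barcodes Oat had 144 and 63.0 CPM in CKO replicates 1 and 2 against 37.7 and 14.6 CPM in WT replicates 1 and 2. The part of free RNA in its class values was not tested.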

How the data were processed

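Nuclei were prepared from fresh-frozen livers, with paraformaldehyde added to the homogenate, and run on 10x Genomics droplets with 3′ chemistry, per the labels' protocols. The authors deposited raw UMI counts per gene and barcode, made with Cell Ranger 5.0.1 on mm10, per the submitters' processing notes. The deposited counts were not normalised, and the filter behind the kept barcodes is not given in the sources used here. Doublets were scored with Scrublet and removed at 0.8% per 1000 barcodes. Barcodes were clustered with scanpy 1.11.5 (1998 variable genes without the members, 30 components, Leiden resolution 1). A cluster was named where at least 3 markers lay 1.25 times above the lowest-UMI barcodes and at 0.2 or more of their highest cluster, limits set after seeing the data. Raw counts were summed per library and class and tested with the quasi-likelihood test of edgeR 4.0.16 after filterByExpr and TMM scaling, in R 4.3.3; DESeq2 1.42.0 was an alternative. The fits were checked on simulated data. CPM are UMIs per 1000000 UMIs of the class. Log2 values per library used a prior count of 2. Gene positions came from GENCODE M21, without strand checks of the authors' counting, and 13 of the 36 members overlap another annotated gene there. Members, lists and tests were chosen with earlier results of these data known. The text gives each library's values for members among the 4 smallest p of a class, for the regulators and main targets, and for members at least 2 times over the lowest-UMI barcodes in every library, and for most others. Equal replicate numbers were not taken to pair libraries, because the labels give no shared litter or day and there are only 2 pairs.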

Additional observations from a re-analysis of the deposited data

Results flagged for a closer look

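The count tables hold 7 added vector or reporter sequences that the comparisons do not use. 1 of them, Neo-PIGCN21AN, had 100 and 20 UMIs in CKO replicates 1 and 2 against 36 and 1 UMIs in WT replicates 1 and 2. Per 1000000 UMIs this was 2.63 and 1.63 in the CKO libraries against 0.789 and 0.0719 in the WT libraries, so it was looked at again because both CKO values exceed both WT values. EYFP did not separate the genotypes, with 0.526 and 3.18 per 1000000 UMIs in CKO replicates 1 and 2 against 5.81 and 0.575 in WT replicates 1 and 2. The sequence eGFPcre was highest in a WT library, with 5 and 4 UMIs in CKO replicates 1 and 2 against 54 and 0 UMIs in WT replicates 1 and 2, or 0.132 and 0.326 per 1000000 UMIs against 1.18 and 0. The labels do not say what these sequences mark.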

How the results depend on the processing

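No member was called by edgeR in the 6 fits, nor under DESeq2, RLE scaling, the replicate block or at least 1000 UMIs per barcode, which removed no barcode. In the 5 classes none was called with members kept among the clustering genes, nor with free RNA subtracted, where 36 members could be tested in hepatocyte-like, 21 in cholangiocyte-like, 7 in endothelial-like, 11 in mesenchymal-like and 21 in macrophage-like nuclei. Neither was run on all kept barcodes. With no low-count filter edgeR called Gsta1, Gstm2 and Gstp2 in cholangiocyte-like (3 members, 0.484% of all genes), Gsta1 and Gstm2 in endothelial-like (2, 0.457%) and mesenchymal-like (2, 0.761%) and Gsta1 in macrophage-like nuclei (1, 0.595%). Without doublet removal it called 1 in cholangiocyte-like nuclei (0.272%). A limit of at least 2500 UMIs per barcode, added after seeing the data and possible in hepatocyte-like nuclei alone, called 0. With a library left out, the members called ranged from 0 to 3 in hepatocyte-like, 0 to 3 in cholangiocyte-like, 0 to 4 in endothelial-like, 0 to 6 in mesenchymal-like, 0 to 2 in macrophage-like nuclei and 0 in all kept barcodes. The highest of these counts in each class came from leaving out CKO replicate 1, where 1.17%, 0.867%, 2.34%, 2.34% and 1.63% of all genes were called in that order of classes. Of the second list, 0 to 4 were called in hepatocyte-, endothelial-, mesenchymal- and macrophage-like and 0 to 3 in cholangiocyte-like nuclei. With 1 library in a group, that library is assumed to vary like those of the other group.

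With the replicate block, Gstk1 of the second list was called in macrophage-like nuclei (1 gene), where 13 of 12207 genes (0.106%) were called, and the block moved the count of calls in neither list elsewhere. Deviations of same-numbered libraries correlated at 0.49 in all kept barcodes, at 0.268 in hepatocyte-like nuclei and at 0.076 to 0.131 in the other classes. In hepatocyte-like nuclei the block turned the sign of 4 members' log2 changes, among them Nqo1 (-0.37) and Txnrd1 (-0.031). Leaving out 1 library or another turned 21 of the 36 members in hepatocyte-like nuclei and between 12 and 24 in the other fits. Of the regulators, the main targets and the members with the 4 smallest p in hepatocyte-like nuclei, 5 turned. The change of Nqo1 was -2.16 when CKO replicate 1 was left out and 1.004 when CKO replicate 2 was, those of Txnrd1 (-0.63 and 0.56), Gclc (-1.71 and 0.0058) and Gclm (-0.74 and 0.47) spanned 0 in the same order, and that of Keap1 ran from 0.23 to -0.045. Without WT replicate 1, Keap1 stood at -0.036, Nqo1 at -0.043, Gclm at 0.29 and Txnrd1 at -0.064. With free RNA subtracted, 6 of 36 members turned in hepatocyte-like, 8 of 21 in cholangiocyte-like, 1 of 7 in endothelial-like, 3 of 11 in mesenchymal-like and 5 of 21 in macrophage-like nuclei, where Gstt1 stood at -0.34. The cause was not tested. Cholangiocyte-like nuclei of CKO replicate 2 gave 95413 UMIs, so 0 UMIs there allow a level of up to 31.4 CPM.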
